A study of Homo sapiens with 16 samples.

Results

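Some genes of iron storage and uptake in human cells have mRNAs that share a regulatory hairpin. In U2OS, a human osteosarcoma cell line, 6 iron handling genes were followed, some with a match to that hairpin and some without. They are the 2 ferritin subunits FTH1 and FTL, the transferrin receptor TFRC, the ferritin-degradation receptor NCOA4, and the 2 iron regulatory proteins IREB2 (IRP2) and ACO1 (IRP1). They were chosen by gene symbol from 28207 human genes. All 6 entered the tests, which took the 4632 genes that averaged 50 CPM or more (CPM is a gene's reads scaled to a common library size). The choice was made with an earlier result known, the higher FTH1 level of CL over CC in zdna1, so that contrast is described here and not tested for any of the 6.

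Total RNA from U2OS cells, extracted with Trizol, was sequenced in 16 libraries. Their labels combine 4 numbers (zdna1, zdna2, zdna3 and zdna4) with 2 arms (CC and CL), and each of the 8 groups has 2 replicates. Neither the numbers nor the arms are spelled out, no genotype, treatment or time is given for any group, and no arm is named as a control, so arm differences are written as CL over CC. MYC, a transcription factor, FACT, a histone chaperone, and Z-DNA, a left-handed form of DNA, appear in the title of the series.

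When iron is scarce, the iron regulatory proteins bind iron-responsive elements, short hairpins with a CAGUGN loop in mRNA untranslated regions. Binding in the 5′ UTR of a ferritin mRNA blocks its translation, and binding in the 3′ UTR of TFRC mRNA protects it from decay. Much of ferritin control is therefore translational and lies outside what an RNA level shows. MYC is known to repress FTH1 and to raise IREB2 and TFRC transcription.

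These hairpins set apart the members in which a search found the element from those in which it did not. The sequences below are the sites found in GENCODE 29 transcripts (GRCh38), written as DNA 5′ to 3′ on the transcript strand with the 6-base loop in capitals.
FTH1, 5′ UTR in exon 1, chr11:61967575-61967601, minus strand: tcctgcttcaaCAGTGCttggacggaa
FTL, 5′ UTR in exon 1, chr19:48965336-48965362, plus strand: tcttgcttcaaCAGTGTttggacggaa
TFRC, 3′ UTR in exon 19, chr3:196050980-196051006, minus strand: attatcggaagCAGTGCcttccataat
TFRC, 3′ UTR in exon 19, chr3:196050576-196050602, minus strand: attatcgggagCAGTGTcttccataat
TFRC, 3′ UTR in exon 19, chr3:196050511-196050537, minus strand: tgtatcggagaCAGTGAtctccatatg
TFRC, 3′ UTR in exon 19, chr3:196050464-196050490, minus strand: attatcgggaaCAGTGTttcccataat

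The search took the transcript strand of 19669 protein-coding genes and asked for a bulged C, an upper stem of 5 pairs around a loop of CAGTG followed by A, C or T, and at least 4 of 5 pairs in the lower stem, with G-T pairs allowed. It matched 20 genes, 0.102% of those searched, among them the iron exporter SLC40A1 and the erythroid heme enzyme ALAS2. NCOA4, IREB2 and ACO1 held no match to these letters. Elements that break this rule would be missed, so the TFRC sites listed need not be all that it carries. The E-box CACGTG, a sequence bound by MYC and other factors that reads the same on both strands, lay in 0 of the 7 RefSeq promoter windows of the 5 members with an entry, against 7.26% of 35116 windows of 300 bases. FTH1 is the member without an entry, so its promoter was not searched. With 7 windows, a count of 0 cannot be told apart from that share.

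Reads assigned to human genes ran from 39335 to 310187 per library, so that 1 read was worth 3.22 to 25.4 CPM, and the 2 zdna4 CC libraries and the 2 zdna3 CC libraries were the shallowest. The zdna4 CC libraries also stood apart in the summed level of 401 genes for olfactory receptors, proteins of the nose's sensory neurons: 1449 and 1492 CPM there against 55.3 to 396 CPM in the other 14 libraries. The extra reference sequence that each number's files hold (a contig) took a share of human-gene plus contig reads that moved with the arm in 3 numbers: 25.7% to 27.3% in zdna1 CC against 0.326% to 0.403% in zdna1 CL, 87.4% to 87.7% against 20.8% to 21.6% in zdna3, and 13.8% to 17.8% against 1.28% to 1.40% in zdna4, while in zdna2 it was 63.4% to 64.3% against 60.0% to 61.1%. Of 13 osteoblast-lineage markers, 2 late ones (IBSP and BGLAP) had no read in any library. Others were near the floor, with 1 read for SP7, 7 for SPP1, 10 for COL1A2 and 15 for ALPL in all libraries together. The 13 together summed to 1679 to 2824 CPM, carried mainly by COL1A1 (mean 881 CPM) and SPARC (mean 804 CPM). Markers of other cell types were low: the sum over 8 erythroid markers, 5 of them at 0 reads, was 0 to 54.0 CPM, over 4 epithelial ones 0 to 108 CPM, over 4 leukocyte ones 0 to 35.7 CPM and over 3 hepatocyte ones 0 to 26.4 CPM. The part of these differences in the results below was not tested.

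Per kilobase of exon, FTL was by far the most abundant of the 6 at a mean of 984 CPM per kb, followed by FTH1 at 123, NCOA4 at 62.6, TFRC at 18.0, ACO1 at 14.0 and IREB2 at 9.72. FTH1's level, though not its place in that order, depends on which of its bases could be counted. In the deposited annotation (hg19) 880 of its 1203 exon bases, or 73.2%, overlap exons of BEST1, a retinal channel gene on the opposite strand with 13 reads in all libraries together. The counting used read pairs, with no strand and no setting for reads over several genes. Pairs lying wholly in the overlap are then left out, while pairs that reach into the rest of FTH1 may still be counted. Only a 323-base stretch of FTH1 (hg19, chr11:61734784-61735106) is free of overlap, and per kilobase of that stretch its level was 457 CPM. That value is too high if pairs reaching into the overlap were counted. None of the other 5 members shares an exon base with another gene. The many ferritin pseudogenes had few assigned reads, 5 for FTH1P3 and 2 for FTLP10, and the mitochondrial ferritin gene FTMT had 0.

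FTH1, which codes for the heavy subunit that oxidises iron for storage (hg19, chr11:61731757-61735106), rested on 298 reads, 5 to 46 per library. In zdna1 its level was 53.2 and 137 CPM in the CC libraries and 230.4 and 273 CPM in the CL libraries. In zdna2 it was 105 and 84.0 CPM in CC and 69.8 and 91.6 CPM in CL. For FTH1, zdna1 holds the widest gap between arms and zdna2 the lowest CL levels. In zdna3 FTH1 was at 89.2 and 143 CPM in CC and 199 and 182 CPM in CL. In zdna4 it was at 243 and 132 CPM in CC and 147 and 183 CPM in CL. CL libraries therefore lay above CC libraries in zdna1 and zdna3 and overlapped them in zdna2 and zdna4. By group mean the order ran from zdna1 CL (251 ± 29.7 CPM, SD, n = 2) through zdna3 CL, zdna4 CC, zdna4 CL, zdna3 CC, zdna1 CC and zdna2 CC to zdna2 CL (80.7 ± 15.4 CPM, SD, n = 2). In that order only zdna1 CL and zdna4 CL stood clear of the next group down. In bulk RNA such as this, fewer cells expressing a gene and less of its RNA per cell cannot be told apart.

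FTL, the light subunit that helps the iron core form (hg19, chr19:49468566-49470136), had 1838 reads and was the best measured member. In zdna1 its level was 1011 and 907 CPM in CC and 1082 and 1001 CPM in CL. In zdna2 it was 779 and 642 CPM in CC and 852 and 733 CPM in CL. FTL was thus lower in all 4 zdna2 libraries than in any of the 4 zdna1 libraries. In zdna3 it was at 749 and 833 CPM in CC and 796 and 864 CPM in CL. In zdna4 it was at 729 and 607 CPM in CC and 999 and 1125 CPM in CL. Only in zdna4 did both CL libraries lie above both CC libraries, and FTL spanned only 1.85 times from its lowest to its highest library, against 5.12 times for FTH1.

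TFRC, the receptor that takes up transferrin-bound iron (hg19, chr3:195776155-195808961), had 155 reads, 3 to 20 per library, and is the member with the least precise values. In zdna1 its level was 79.8 and 114 CPM in CC and 55.9 and 63.4 CPM in CL. In zdna2 it was 114 and 76.4 CPM in CC and 41.9 and 34.3 CPM in CL. In both numbers the CL libraries lay below the CC libraries. In zdna3 TFRC was at 178 and 95.3 CPM in CC and 146 and 219 CPM in CL, with the arms overlapping. In zdna4 it was at 135 and 79.2 CPM in CC and 54.4 and 17.9 CPM in CL, again with CL below CC. The highest group was zdna3 CL (182 ± 51.7 CPM, SD, n = 2) and the lowest zdna4 CL (36.1 ± 25.8 CPM, SD, n = 2).

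**Figure D1:**
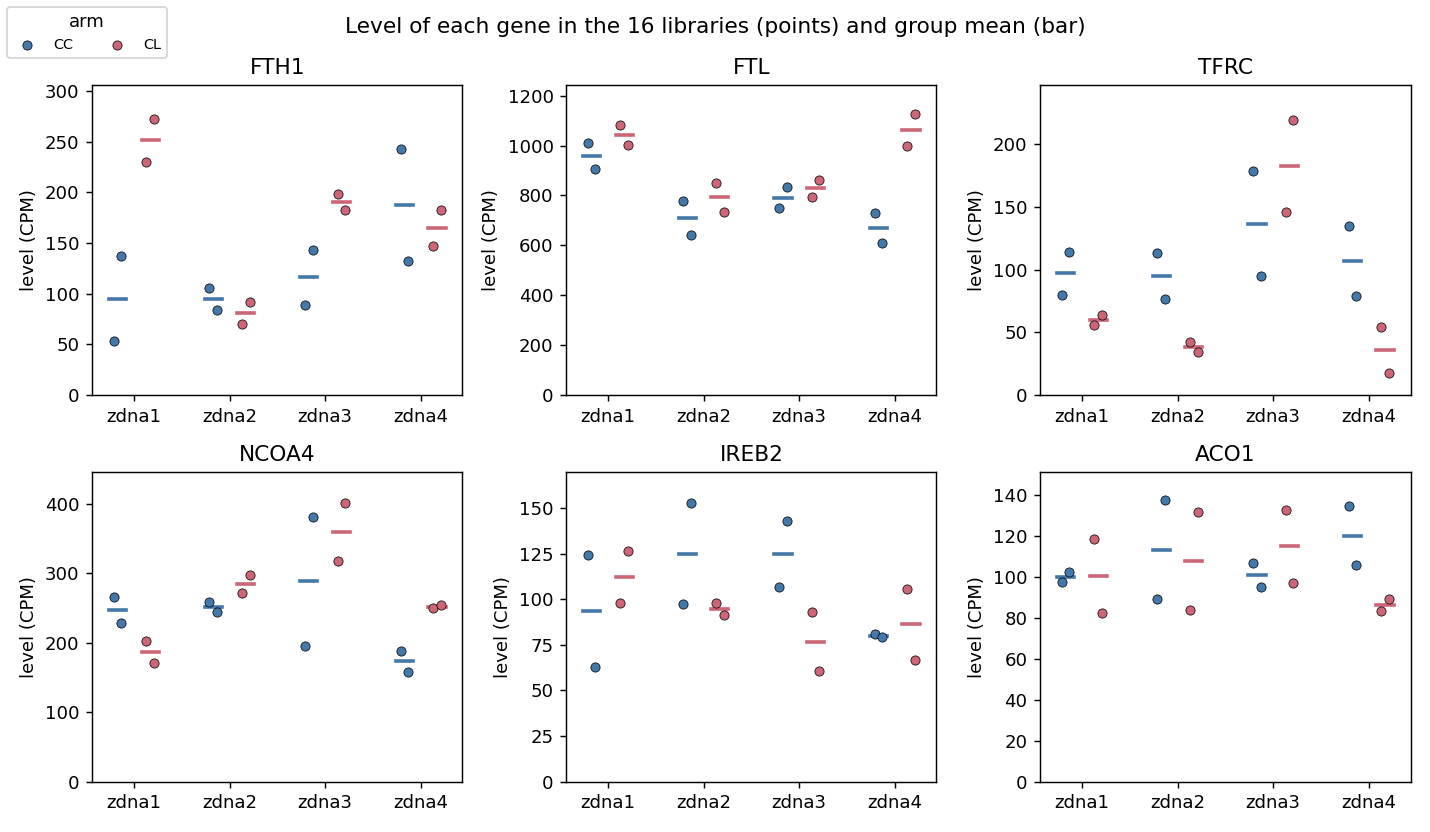
Level of each of the 6 genes in CPM (vertical axis, linear, from 0) by number (horizontal axis). Each point is 1 library and each bar the mean of 2. FTH1 reaches 230.4 and 273 CPM in zdna1 CL, FTL falls in a narrow band of 607 to 1125 CPM, and TFRC is lowest in the CL libraries of zdna2 and zdna4.

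NCOA4, which carries ferritin to autophagosomes for iron release (hg19, chr10:51565108-51590734), was read 513 times. In zdna1 its level was 266 and 228 CPM in CC and 203 and 171 CPM in CL. In zdna2 it was 259.6 and 244 CPM in CC and 272 and 298 CPM in CL. The CL libraries lay below CC in zdna1 and above CC in zdna2. In zdna3 it was at 196 and 381 CPM in CC and 318 and 401 CPM in CL, overlapping. In zdna4 it was at 189 and 158 CPM in CC and 249.7 and 255 CPM in CL, with CL above CC.

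The 2 iron regulatory proteins had levels close to each other. IREB2 (hg19, chr15:78729773-78793798), which is degraded when iron is plentiful, had 199 reads and levels from 60.8 to 153 CPM. Its CL libraries lay below its CC libraries in zdna3 alone. ACO1 (hg19, chr9:32384601-32454766), which switches between RNA binding and aconitase activity with its iron-sulfur cluster, had 206 reads and levels from 82.4 to 138 CPM. Its CL libraries lay below CC in zdna4 alone, at 83.2 and 89.3 CPM against 135 and 106 CPM.

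Separation of 2 libraries from 2 is common in these data, and the counts above have to be read against it. CL and CC libraries did not overlap for 3 of 6 members in zdna1, 2 of 6 in zdna2, 2 of 6 in zdna3 and 4 of 6 in zdna4, where over all 4632 genes the share was 41.8%, 35.0%, 34.0% and 44.2%. An exact two-sided permutation test of 2 against 2 libraries cannot go below p = 0.333, so differences were tested in a limma fit across all genes.

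In zdna1, the contrast behind the choice, FTH1 was higher in CL by 1.44 on the log2(CPM + 10) scale (SE 0.314). Summed reads gave 76 in CL and 30 in CC, a level ratio of 2.43 with a 95% counting interval of 1.57 to 3.83. FTL differed by 0.12, TFRC by -0.60, NCOA4 by -0.39, IREB2 by 0.30 and ACO1 by -0.01. Without the first zdna1 CC library, where FTH1 had 6 reads, its difference was 0.83, and without the second it was 2.06. Over all genes, 0.756% pass an adjusted p of 0.05 in this contrast. FTH1's value there led to the choice, so no call is made on it.

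The arm contrasts of the other 3 numbers are not the one behind the choice, and in none of them did any of the 6 pass. The genes and tests were still chosen with earlier results of these data known. In zdna2, 0 of 6 members passed limma's test, as did 0.173% of all genes, and edgeR and DESeq2 each passed 0. DESeq2 gives some genes no adjusted p, and such genes count here and below as not passing. At an unadjusted p under 0.05 limma had 1 of 6 there, TFRC, beside 6.58% of all genes. TFRC differed by -1.11 (SE 0.407, adjusted p = 0.521), and its level ratio from 12 and 24 reads was 0.400 with a counting interval of 0.182 to 0.831. FTH1 differed in zdna2 by -0.21 (95% interval -0.85 to 0.43). Whether an arm difference departs from that of zdna1 was not tested for any member, because the zdna1 value led to the choice.

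In zdna3, 0 of 6 passed limma's test against 0.0864% of all genes, 0 of 6 had an unadjusted p under 0.05 against 6.56%, and edgeR and DESeq2 passed 0. FTH1 differed by 0.70 (SE 0.508, adjusted p = 0.919), on 30 reads in CL and 11 in CC. The 95% interval of -0.31 to 1.72 holds both 0 and 1.44, and the difference was 0.39 without the first zdna3 CC library and 0.98 without the second. FTL differed by 0.07 in zdna3 (95% interval -0.36 to 0.50).

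In zdna4, 0 of 6 passed limma's test against 1.17% of all genes, edgeR and DESeq2 passed 0, and 2 of 6 had an unadjusted p under 0.05 against 10.4%. FTL differed by 0.66 (SE 0.216, adjusted p = 0.114), a level ratio of 1.58 with a counting interval of 1.18 to 2.15, and TFRC by -1.42 (SE 0.650, adjusted p = 0.397). TFRC's difference was -0.80 without the second zdna4 CL library and -2.02 without the first. FTL's adjusted p lay below the threshold in 6 of 16 alternatives, for example 0.0419 when libraries were scaled by their totals and 0.025 without array weights. The zdna4 CC libraries that FTL is measured against are those with the raised olfactory receptor sum. FTH1 in zdna4 differed by -0.12 (95% interval -1.14 to 0.89), by 0.32 without the first zdna4 CC library and by -0.53 without the second.

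Averaged over zdna2, zdna3 and zdna4, 0 of 6 passed limma's test against 0.0864% of all genes, 0 by edgeR and 0 by DESeq2, and 2 of 6 had an unadjusted p under 0.05 against 7.97%. The averages were 0.30 for FTL (SE 0.111, adjusted p = 0.432) and -0.70 for TFRC (SE 0.335, adjusted p = 0.589). Without the 4 zdna4 libraries they were 0.11 for FTL and -0.35 for TFRC. FTH1 averaged 0.12 (SE 0.262), NCOA4 0.35, IREB2 -0.31 and ACO1 -0.11, and the median member stood at 0.01 beside 0.06 over all genes tested. A test of whether the 3 arm differences are unequal passed for 0 of 6 members, against 1.19% of all genes, and for 0 by edgeR. At an unadjusted p under 0.05 it had 2 of 6, FTL and TFRC, beside 12.9% of all genes.

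**Figure D2:**
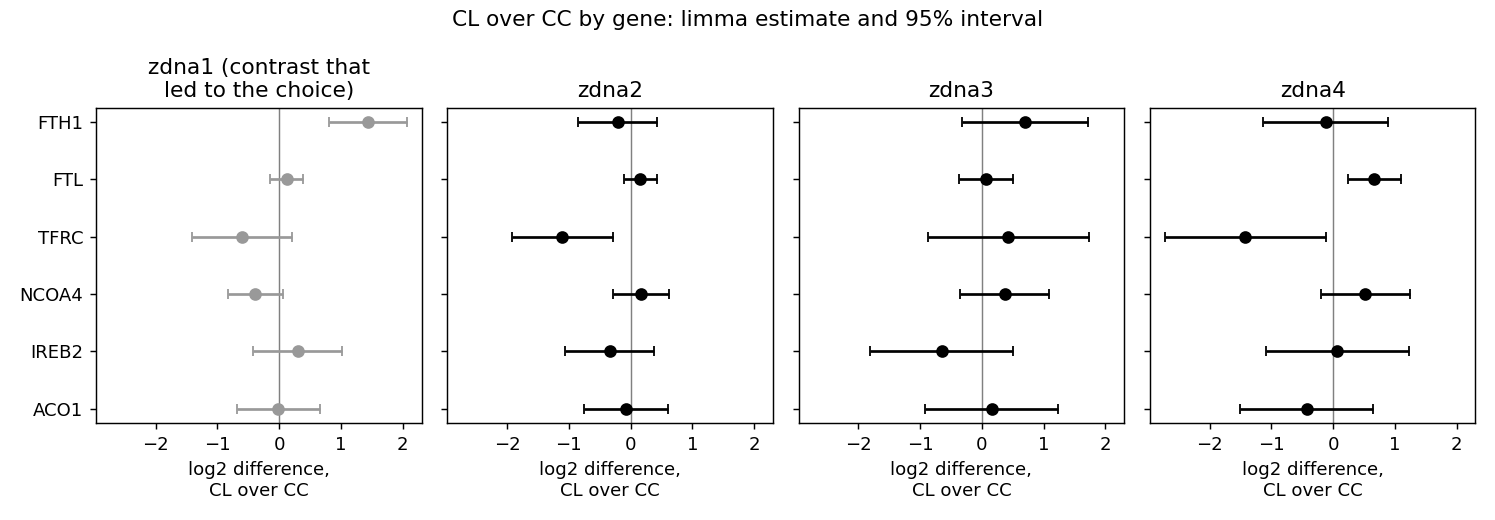
Log2 difference of CL over CC (horizontal axis, on the log2(CPM + 10) scale) for each gene (vertical axis) in each number, as limma estimates (points) with 95% intervals (bars). Grey marks zdna1, the contrast that led to the choice. FTH1 stands at 1.44 in zdna1 and at -0.21, 0.70 and -0.12 in zdna2, zdna3 and zdna4.

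The make-up of the ferritin mRNA pool was described as the share of FTH1 among FTH1 and FTL reads, which needs no scaling between libraries. The share was 9.06% ± 5.74 (SD, n = 2) in zdna1 CC and 19.5% ± 2.72 in zdna1 CL. It was 11.8% ± 0.246 in zdna2 CC and 9.34% ± 2.50 in zdna2 CL. In zdna3 it was 12.6% ± 2.83 in CC and 18.7% ± 1.81 in CL, and in zdna4 21.4% ± 5.05 in CC and 13.4% ± 0.809 in CL. The CL share lay above CC in zdna1 and zdna3 and below it in zdna2 and zdna4, without overlap between libraries in any of the 4 numbers. In zdna2 the gap was narrow, 11.6% (11 of 95 reads) in the second CC library against 11.1% (16 of 144 reads) in the second CL library. The zdna1 shares hold the FTH1 values behind the choice. How often shares of other gene pairs separate was not computed, and 2 against 2 libraries allow no exact permutation p under 0.333. The exact (Clopper-Pearson) 95% intervals of the pooled counts were wide, from 12.5% to 34.0% in zdna4 CC, where the pool held 64 reads. They cover counting error only. Since read pairs within the BEST1 overlap are left out, this is not the share of heavy-subunit mRNA.

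**Figure D3:**
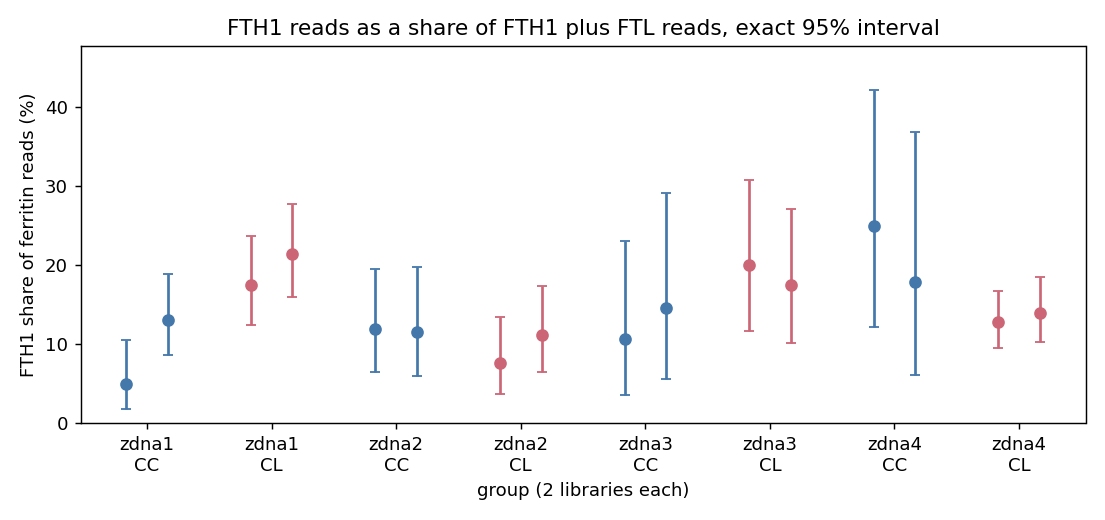
FTH1 reads as a percentage of FTH1 plus FTL reads (vertical axis) in each library, with exact 95% binomial intervals, by group (horizontal axis, 2 libraries each). The share is highest in zdna4 CC, zdna1 CL and zdna3 CL and the widest intervals are those of zdna4 CC.

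Differences in level among the 4 numbers passed for both ferritin genes and TFRC in the main fit, but not under every alternative. Averaged over the arms, FTH1 (adjusted p = 0.0151), FTL (adjusted p = 0.0108) and TFRC (adjusted p = 0.0336) passed limma's test of any difference among the 4 numbers, which is 3 of 6 members where 15% of all genes passed. NCOA4 (adjusted p = 0.0851), IREB2 (adjusted p = 0.816) and ACO1 (adjusted p = 0.978) did not. The test is separate from the arm contrasts but uses the same zdna1 libraries in which FTH1 was noticed. FTH1's call, and so the count of 3 that includes it, is therefore not independent of the choice. Leaving out single libraries ended some of these calls. Without the second zdna2 CC library none of the 3 passed (adjusted p = 0.109 for FTH1, 0.0883 for FTL and 0.0729 for TFRC). Without the second zdna2 CL library FTH1 alone passed (adjusted p = 0.0241). FTH1 also failed without the first zdna2 CL library (adjusted p = 0.104) and without the first zdna4 CC library (adjusted p = 0.0518), and FTL without the first zdna1 CC library (adjusted p = 0.0561). NCOA4 passed without the first zdna3 CC library (adjusted p = 0.0434). TFRC failed without any 1 of the 4 zdna3 libraries (adjusted p from 0.061 to 0.249) and without the second zdna4 CC library (adjusted p = 0.0679). Without all 4 zdna4 libraries the 3 genes passed, and without array weights none did (adjusted p from 0.0573 to 0.139).

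Split by arm, limma passed the differences among numbers in the CL libraries alone for FTL (adjusted p = 0.0305) and TFRC (adjusted p = 0.000629). In the CC libraries alone, which include the shallowest groups, limma gave adjusted p = 0.17 for FTL and 0.943 for TFRC. FTH1 is described here without a test, since its zdna1 CL level belongs to the values behind the choice. Its CL means from zdna1 to zdna4 were 251, 80.7, 190.7 and 165 CPM, and its CC means 95.03, 94.7, 116 and 187 CPM. Whether the arms differ in this was not tested, since such a test would take in the zdna1 contrast behind the choice.

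By their means, both ferritin genes were lowest in zdna2. FTL averaged 1000.3 ± 72.1 CPM in zdna1 and 751 ± 87.9 CPM in zdna2 (SD, n = 4), a difference of -0.41 on the log2(CPM + 10) scale (SE 0.0949, adjusted p = 0.00633 by limma). It was the only member of the 6 to pass between zdna2 and zdna1, where 2.50% of all genes passed. All 4 zdna2 libraries lay below all 4 zdna1 libraries for FTL, which was so in this direction for 3.65% of genes. The difference passed in 15 of 22 alternatives. It failed without the first zdna1 CC library (adjusted p = 0.0639), the second zdna2 CC library (adjusted p = 0.0911) and the second zdna2 CL library (adjusted p = 0.0592), with estimates of -0.37, -0.34 and -0.36.

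FTH1 showed the same order, at 173 ± 98.1 CPM in zdna1 and 87.7 ± 14.9 CPM in zdna2 (SD, n = 4), but its difference of -0.71 (SE 0.223, adjusted p = 0.0761) missed limma's threshold and the libraries overlapped. edgeR put it below (adjusted p = 0.0389). Neither is an independent test, because the contrast takes in the zdna1 CL values behind the choice. The gap rests on the zdna1 CL libraries behind the choice: in CC the 2 means were 95.03 and 94.7 CPM, a difference of 0.11 on the log2(CPM + 10) scale, and in CL the difference was -1.53. It was -1.01 without the first zdna1 CC library and -0.41 without the second. Between zdna4 (176 ± 49.3 CPM, SD, n = 4) and zdna2 the FTH1 libraries did not overlap, as for 4.25% of genes in this direction, with a difference of 0.91 (SE 0.299, adjusted p = 0.0922 by limma and 0.0475 by edgeR). Between these numbers limma passed 0 of 6 members against 2.48% of all genes, 1 of 6 at an unadjusted p under 0.05 against 15.6%, edgeR 1 and DESeq2 0. FTL stood at 810.4 ± 49.6 CPM in zdna3 and 865 ± 238 CPM in zdna4 (SD, n = 4). All 4 zdna3 libraries lay below the zdna1 libraries for FTL, as for 4.71% of genes, with a difference of -0.30 (SE 0.127, adjusted p = 0.184).

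TFRC was highest in zdna3, at 159.6 ± 52.3 CPM against 66.6 ± 36.3 CPM in zdna2, 78.3 ± 25.9 CPM in zdna1 and 71.6 ± 49.2 CPM in zdna4 (SD, n = 4). Its difference of 1.21 between zdna3 and zdna2 (SE 0.384, adjusted p = 0.0452 by limma) made it the 1 of 6 members to pass there, beside 6.0% of all genes. The libraries of the 2 numbers overlapped, and the call was lost on leaving out any 1 of the 8 libraries, with adjusted p from 0.0522 to 0.247 and estimates from 1.00 to 1.42. edgeR (adjusted p = 0.0049) and DESeq2 (adjusted p = 0.0296) passed it too. On the deposited scale, where the median gene moved by -1.36 between these numbers, TFRC moved by -0.15, so it stood above that median by about the same amount while its sign turned. TFRC also differed by 0.93 between zdna3 and zdna1 (SE 0.382, adjusted p = 0.17) and by -1.23 between zdna4 and zdna3 (SE 0.460, adjusted p = 0.121), neither past the threshold. On the deposited scale, where the median gene of zdna3 is lower, these 2 differences turned sign as well, to -0.54 and 0.17.

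Between zdna3 and zdna1 limma passed 0 of 6 members against 4.49% of all genes, with 3 of 6 at an unadjusted p under 0.05 against 18.0%, 1 by edgeR (TFRC) and 0 by DESeq2. Between zdna4 and zdna3 it passed 0 of 6 against 4.75%, with 2 of 6 at an unadjusted p under 0.05 against 17.9%, 1 by edgeR (TFRC) and 0 by DESeq2. Between zdna4 and zdna1 it passed 0 of 6 against 0.691%, with 0 of 6 at an unadjusted p under 0.05 against 9.89%, and 0 by edgeR and by DESeq2. NCOA4 averaged 217 ± 40.2 CPM in zdna1, 268 ± 22.5 CPM in zdna2, 324 ± 92.4 CPM in zdna3 and 213 ± 47.0 CPM in zdna4 (SD, n = 4). Mean levels over the 4 numbers were 83.2 to 109.9 CPM for IREB2 and 100.3 to 111 CPM for ACO1, which did not separate.

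**Figure D4:**
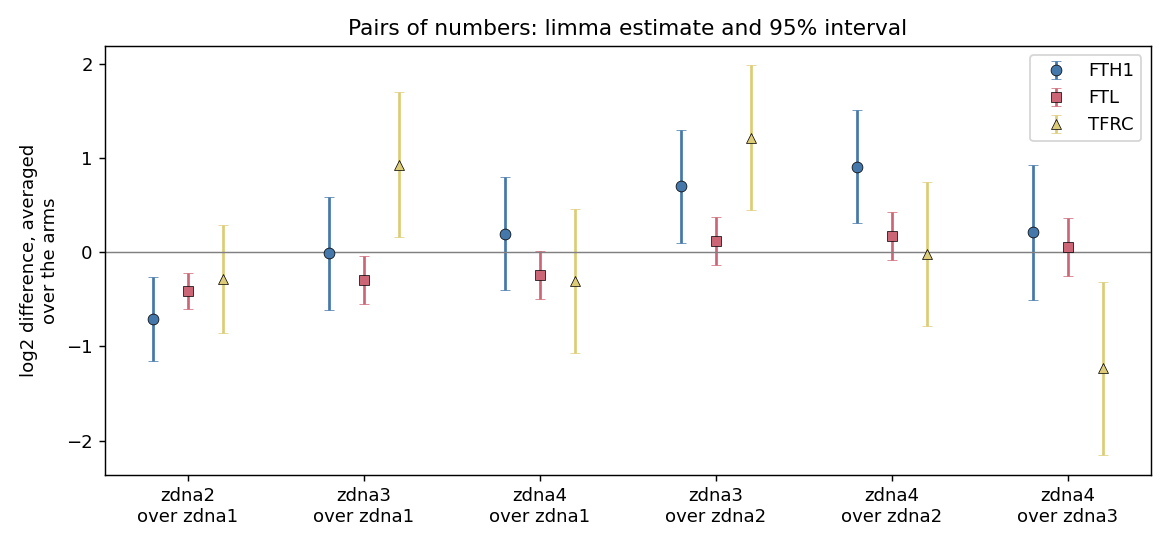
Log2 difference between each pair of numbers, averaged over the arms (vertical axis, log2(CPM + 10) scale), for FTH1, FTL and TFRC, as limma estimates (markers) with 95% intervals (bars). FTL has the shortest bars and lies at -0.41 for zdna2 over zdna1, and TFRC lies at 1.21 for zdna3 over zdna2.

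The 6 genes did not move as a unit across the 16 libraries. Pearson's r of log2(CPM + 10) was 0.27 between FTH1 and FTL, -0.38 between FTL and TFRC, 0.09 between FTH1 and TFRC, and -0.53 between FTL and ACO1, over libraries that share depth and group. Of 922 genes averaging 200 CPM or more, those most like FTH1 were AGRN, a basement-membrane proteoglycan (r = 0.83), the endocytic receptor LRP1 (r = 0.73) and RMRP, an RNA of RNase MRP (r = 0.73). Those most like FTL were the tubulins TUBB (r = 0.83) and TUBA1B (r = 0.82) and the actin ACTB (r = 0.78), whose reads may be shared with their close copies. Those most like TFRC were PLOD2, a collagen lysyl hydroxylase (r = 0.82), the transglutaminase TGM2 (r = 0.77) and MAP7D1 (r = 0.75). These coefficients describe 16 libraries and were the highest of many.

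Around the 6 genes, 114 further genes of iron, heme, iron-sulfur cluster, NRF2 and ferritinophagy pathways were followed, of which 42 had enough reads to be tested. Between the arms limma passed 0 of 42 in zdna1, beside 0.756% of all genes, and 1 of 42 had an unadjusted p under 0.05, beside 10.6%. In zdna2 it passed 0 of 42 beside 0.173%, with 6 of 42 at an unadjusted p under 0.05 beside 6.58%. In zdna3 both counts were 0 of 42, beside 0.0864% and 6.56%. In zdna4 it passed 1 of 42 beside 1.17%, with 11 of 42 at an unadjusted p under 0.05 beside 10.4%. The gene that passed was PRDX1, a peroxiredoxin and NRF2 target, at 54.0 and 106 CPM in zdna4 CC and 249.7 and 237 CPM in zdna4 CL, a difference of 1.56 (SE 0.401, adjusted p = 0.0382). That call was lost on leaving out any 1 of the 4 zdna4 libraries, with adjusted p from 0.0508 to 0.509, and with edgeR (adjusted p = 0.0958) and DESeq2 (adjusted p = 0.416). Its arm differences were also unequal among zdna2, zdna3 and zdna4 (adjusted p = 0.0172), which failed without the first zdna4 CC library (adjusted p = 0.341). The median of the 42 genes in zdna4 was 0.47 beside 0.08 over all genes tested, in the contrast with the shallow zdna4 CC libraries.

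By list, the tested members in zdna4 CL over CC, where 1.17% of all genes passed, were 14 of 18 NRF2 and antioxidant genes (1 passed, higher, median 0.61), 10 of 18 ferritinophagy, autophagy and lysosome genes (0 passed, median 0.75), 6 of 17 iron uptake and trafficking genes (0 passed, median 0.52), 6 of 20 heme genes (0 passed, median 0.34), 4 of 10 genes of iron regulatory protein turnover (0 passed, median -0.17), 2 of 22 iron-sulfur cluster genes (0 passed, median 0.03) and 1 of 10 iron export genes (0 passed, -0.51). Of the heme genes, ALAS1, the first enzyme of heme synthesis, had the highest mean at 70.6 CPM. The biliverdin reductase BLVRB followed at 63.1 CPM and the heme oxygenase HMOX1, which frees iron from heme, at 59.6 CPM. The iron chaperones PCBP1 and PCBP2, which load ferritin, had means of 255 and 523 CPM.

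Among the numbers, 6 of the 42 genes passed the test of any difference, 14.3% where 15% of all genes did. SQSTM1, the autophagy receptor p62, was the clearest: it stood at 487 to 619 CPM in the 4 zdna3 libraries and at 162 to 310.3 CPM in the other 12. It rose by 1.23 in zdna3 over zdna1 (SE 0.205, adjusted p = 2.47e-05) and by 1.02 over zdna2 (SE 0.205, adjusted p = 0.000593), and fell by 1.39 in zdna4 against zdna3 (SE 0.246, adjusted p = 9.33e-05). These calls held on leaving out any 1 of the libraries compared, whereas on the deposited scale, which lowers the median gene of zdna3, the 3 values were -0.38, -0.47 and 0.17. The ferrireductase STEAP3, which reduces iron released from transferrin, fell by 0.85 in zdna2 against zdna1 (SE 0.248, adjusted p = 0.0461), and the call was lost in 6 of 8 analyses that left out 1 library, with adjusted p up to 0.3. HSPA9, a mitochondrial chaperone of iron-sulfur cluster assembly, fell by 0.71 in zdna3 against zdna2 (SE 0.168, adjusted p = 0.00404), and this call held on leaving out any 1 of the 8 libraries. MAP1LC3B, an autophagosome protein, fell by 1.64 in zdna4 against zdna2 (SE 0.380, adjusted p = 0.00807), but by 0.98 (adjusted p = 0.365) without the first zdna4 CC library, which had no MAP1LC3B read. HERC2 (adjusted p = 0.0462), a ubiquitin ligase that acts on the iron regulatory protein ligase FBXL5, and PRDX1 (adjusted p = 0.0423) also passed among the numbers. HERC2 kept its call in 6 of 16 analyses that left out 1 library and PRDX1 in 5 of 16. Both lost it without any 1 of the zdna3 or zdna4 libraries, the second zdna2 CC library or the first zdna2 CL library, and PRDX1 also without the first zdna2 CC library, with adjusted p up to 0.314 for HERC2 and 0.422 for PRDX1. edgeR passed neither (adjusted p = 0.122 and 0.193).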

How the data were processed

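The series holds 16 U2OS libraries in 8 groups of 2. Per the labels, RNA was taken with Trizol and libraries came from an Abclonal kit; the submitters' processing notes name Trim Galore 0.6.6, STAR, bedtools 2.29.2, featureCounts 2.0.1, hg19 and dm6. Per the file headers, featureCounts ran in paired mode over exons, without options for strand or multi-overlap. The deposited values are a signal, read counts times a constant per library that no source used here explains; divided by each library's smallest step, 99.99% or more of them came to within 0.1 of a whole number, and these reads were used.

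From these reads, CPM with TMM factors (edgeR 4.0.16) were computed over the 4632 genes that averaged 50 CPM or more. limma 3.58.1 on log2(CPM + 10) fitted 8 group means to 16 libraries, with array weights per group, a trended prior and two-sided Benjamini-Hochberg adjustment over all tested genes at 0.05. edgeR's quasi-likelihood test and DESeq2 1.42.0 (R 4.3.3) ran on the recovered reads as alternatives. Genes to which DESeq2 gave no adjusted p were counted as not passing, so its counts of 0 can include members it did not test. Arm estimates are given with 95% intervals. Scripts were tested on simulated data. No label states that replicates came from separate cultures; p-values then measure only the spread between these libraries, which may be technical. Chi-square tests left replicates within counting noise in zdna1 CC (p = 0.0992 over 6025 genes), zdna2 CL (p = 0.281 over 6214 genes) and zdna3 CC (p = 0.744 over 2412 genes); their values were not identical, so each was kept as 2 libraries.

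The 6 genes, the pathway lists and the tests were chosen with earlier results of these data known. Named besides the 6 are list genes that passed a test, otherwise up to 4 of a list by mean CPM, and the 3 genes most like FTH1, FTL and TFRC.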

Additional observations from a re-analysis of the deposited data

Results flagged for a closer look

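NCOA4 is the member whose libraries separated by arm in opposite directions. Both CL libraries lay below both CC libraries in zdna1 and above them in zdna2 and zdna4. On the log2(CPM + 10) scale the CL over CC difference of zdna2 exceeded that of zdna1 by 0.56, and that of zdna4 exceeded it by 0.90. Neither gap between the numbers was tested, since both take in the zdna1 contrast behind the choice. NCOA4's own arm difference passed limma's test in none of zdna2, zdna3 and zdna4. Over all genes tested, 2 libraries separated from 2 for 41.8% in zdna1, 35.0% in zdna2 and 44.2% in zdna4.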

How the results depend on the processing

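Limits: with 2 libraries per group and 1 read worth up to 25.4 CPM, a change in TFRC, IREB2 or ACO1 has to be large to be detectable. The numbers of the 6 members that passed changed as follows, and the cause was not tested. Where no count over all genes stands beside a member count, that count is not read as a result about the members.

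On the deposited scale, where the median gene moved by 0.72 (zdna3) and 0.43 (zdna4) between arms and by -1.48, -1.36 and 1.38 for zdna3 over zdna1, zdna3 over zdna2 and zdna4 over zdna3, the counts were 3 in the arm contrast of zdna3, 1 in zdna4, 2 for the average, 1 for unequal arm differences, 5 for any difference among numbers, 2 for zdna2 over zdna1 and 5 for each of the 3 pairs just named. Over all genes, the highest number passing under any alternative was 1049 in the arm contrast of zdna3, 439 in zdna4 and 938 for the average. It was 400 for unequal arm differences, 4440 for any difference among numbers and 210 for zdna2 over zdna1. For zdna3 over zdna1, zdna3 over zdna2 and zdna4 over zdna3 it was 4421, 4269 and 3832. The main fit tested 4632 genes. On the deposited scale 22 of 73 single-gene values turned sign, and 12 of these involved a call. Among the members those with a call were NCOA4 (-1.04) and ACO1 (-1.35) in zdna3 over zdna1. In zdna3 over zdna2 they were FTH1 (-0.67), FTL (-1.40), TFRC (-0.15) and NCOA4 (-1.24). In zdna4 over zdna3 they were NCOA4 (0.97), IREB2 (1.18) and ACO1 (1.33). Among the pathway genes they were SQSTM1 in zdna3 over zdna1 (-0.38), zdna3 over zdna2 (-0.47) and zdna4 over zdna3 (0.17). TFRC also turned, without a call, in zdna3 over zdna1 (-0.54) and zdna4 over zdna3 (0.17).

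The arm contrast of zdna4 passed 1 member, FTL, with library totals, with TMM over every gene (median gene 0.52), with a 20 CPM filter, without a filter and without array weights; TMM over every gene also gave 1 for the average, for unequal arm differences, for zdna3 over zdna1 and for zdna4 over zdna1. Any difference among numbers passed 4 with TMM over every gene (NCOA4 added, adjusted p = 0.0348), 2 with a pseudocount of 2 CPM (TFRC lost, adjusted p = 0.0736) and 0 without a filter, without array weights and in the CC arm only. zdna2 over zdna1 passed 2 (FTL and FTH1) with edgeR, beside 128 of all genes, and the same 2 with a pseudocount of 50 CPM. It passed 0 without a filter, without array weights and in the CC arm only. With the CL arm alone, FTL failed (adjusted p = 0.0625). FTH1 is given no test there, since its zdna1 CL values led to the choice. zdna3 over zdna2 passed 0 with library totals, TMM over every gene, a 20 CPM filter, no filter, a pseudocount of 2 CPM and the CC arm only. edgeR passed 1 each in zdna3 over zdna1 (251 of all genes), zdna4 over zdna2 (156) and zdna4 over zdna3 (279). The last was also 1 without array weights. The CL arm only gave 1, 2 and 1 for these pairs. Single-arm and zdna4-free analyses were added after the data were seen.

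Leaving out 1 library at a time gave 0 to 3 members for any difference among numbers, 0 to 1 for zdna2 over zdna1, 0 for zdna3 over zdna2 in every case and 0 to 1 for zdna4 over zdna3 (TFRC passed without the first zdna4 CL library, adjusted p = 0.0308). In the arm contrast of zdna1, which led to the choice, no call was counted; FTH1's difference there was 0.83 to 2.06 on leaving out 1 library and 1.12 to 1.61 under the other alternatives. An arm left with 1 library is assumed to vary like the other groups. Of 1474 single-gene values under the alternatives, 115 turned sign, of which 12 (those listed) involved a call.

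Replicate numbers did not pair libraries (deviation correlations over 28 pairs from -0.0195 to 0.0431). With a replicate block, any difference among numbers passed 683 genes against 694, and the members passing were 3, with 1 for zdna2 over zdna1 and 1 for zdna3 over zdna2, so no member's call changed.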
